A study of Mus musculus with 2 samples.

Results

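The melanocortin receptors and their accessory proteins were followed in polyadenylated RNA of the mouse adrenal gland. The family holds 7 genes, Mc1r to Mc5r, Mrap and Mrap2, and all 7 were found by symbol among the 43346 Ensembl genes of the gene tables, with 12 transcripts in the transcript tables. The RNA was prepared from adrenal tissue of the C57BL/6J strain, female and 10 weeks old, and was sequenced as replicate 1 and, later, replicate 2. The labels call these 2 libraries technical replicates of a single biological sample, so there is 1 untreated group, and every error below covers technical spread only. Library and date cannot be told apart.

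Melanocortin receptors are G protein-coupled receptors for peptides cut from pro-opiomelanocortin, and they signal through cyclic AMP. The receptor MC2R binds corticotropin alone and is the receptor through which the pituitary drives steroid production in the adrenal cortex. It reaches the cell surface and binds its ligand only with the help of the small membrane protein MRAP, and loss of either gene causes glucocorticoid deficiency. MRAP2 is a related protein, best known as a partner of MC4R in the brain. MC1R controls pigment type in melanocytes, MC3R and MC4R act in the brain on energy balance, and MC5R acts in exocrine glands such as sebaceous glands.

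The accessory protein genes share a coding exon that is shown here because the 2 genes are related in sequence while their levels in these libraries were far apart. In both genes the coding sequence lies in 3 exons, the first coding part (106 bases in Mrap, 133 in Mrap2) leaves a remainder of 1 when divided by 3, and the middle coding exon has 100 bases. These middle exons lie at chr16:90747524-90747623 (Mrap) and chr9:87175794-87175893 (Mrap2) on the plus strand of GRCm38. Compared position by position without gaps, 56 of the 100 bases were identical, and capitals mark those bases.
Mrap: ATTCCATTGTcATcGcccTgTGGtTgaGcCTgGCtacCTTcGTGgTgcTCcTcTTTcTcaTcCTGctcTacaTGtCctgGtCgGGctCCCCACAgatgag
Mrap2: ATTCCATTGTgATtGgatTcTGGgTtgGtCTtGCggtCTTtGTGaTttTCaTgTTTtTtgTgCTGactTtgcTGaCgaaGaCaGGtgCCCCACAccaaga

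Each receptor had 1 deposited transcript, and the 2 and 4 counts of Mrap2 did not separate its 3. Mrap was the only member whose counts were given to more than 1 transcript. The sequences at the end of its first exon separate those transcripts. The first 30 bases of each line below are the last coding bases of exon 1, which are common to all of them. Mrap-201, the protein-coding transcript, joins them to the 100-base exon. Mrap-202 joins them to an 85-base exon that starts 882 bases upstream of it, and Mrap-204 to a start 149 bases upstream of it, and in both a stop codon follows soon, marked in capitals. The open reading frame has 127 codons before the stop in Mrap-201, 36 in Mrap-202 and 44 in Mrap-204, and both Mrap-202 and Mrap-204 are annotated as targets of nonsense-mediated decay, the pathway that degrades RNAs with an early stop codon.
Mrap-201: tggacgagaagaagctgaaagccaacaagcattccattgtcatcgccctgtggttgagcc
Mrap-202: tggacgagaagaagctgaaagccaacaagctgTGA
Mrap-204: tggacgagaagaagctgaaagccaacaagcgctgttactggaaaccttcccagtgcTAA

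The coding sequence of Mrap-201, 384 bases with its stop codon between positions 90738564 and 90749408 of chromosome 16, has 58.3% G and C. That is the highest coding value among the 7 members, and the 45.1% of Mc2r is the lowest.

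The libraries differed in composition in ways that touch every value below. They held 28267651 and 17376660 expected counts, of which genes of the mitochondrial genome took 40.1% and 10.6%, and nuclear copies of those genes another 13.0% and 4.66%. The ratio between the libraries followed the GC content of the genes. Among genes tested with 42 to 46% GC the median log2 ratio of replicate 2 to replicate 1 was -1.29 (quartiles -1.59 and -0.94, 2619 genes), and among those with 54 to 58% GC it was 2.74 (quartiles 1.72 and 3.90, 2716 genes).

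Mc2r was the only melanocortin receptor with a deposited level of at least 1 TPM (a level per transcript length whose sum is the same in each library) in either library. With totals that left out mitochondrial genes, Mc5r also passed 1 TPM in replicate 2, at 1.16, or 1.48 without their nuclear copies as well. With Mrap it made 2 of 7 members detected at that level in both libraries, where 21.0% of all genes were (21.2% in replicate 1 and 31.1% in replicate 2 alone). The receptor gene Mc2r (ENSMUSG00000045569.6; chromosome 18, 68406907 to 68429320, minus strand, 3 exons with the coding sequence in 1) had 11194 counts in replicate 1 and 6007 in replicate 2. Its level was 245 TPM in replicate 1 and 351 TPM in replicate 2, or 298 ± 74.6 TPM (SD, n = 2 technical libraries). In bulk RNA fewer cells of a type and less RNA per cell cannot be told apart. The authors' deposited intervals, 234 to 243 and 318 to 335 for the posterior mean TPM, did not overlap, and in each library the deposited TPM lay above its own interval.

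Which library was higher in Mc2r depended on the unit of the level and on what it was set against. In FPKM, the other deposited unit, replicate 1 was the higher with no genes left out, at 288 against 252 in replicate 2. Deposited TPM, as above, and posterior mean TPM (238 in replicate 1 and 326 in replicate 2) put replicate 2 higher. After mitochondrial genes and their nuclear copies were left out of the total, Mc2r stood at 1402 TPM in replicate 1 and 569 TPM in replicate 2, the opposite order from the deposited TPM. Its rank among all genes was 94 in replicate 1 and 284 in replicate 2.

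Mrap (ENSMUSG00000039956.4; chromosome 16, 90738207 to 90749785, plus strand), the accessory protein of MC2R, was the other abundant member. It had 292 counts in replicate 1 and 5628 in replicate 2, a level of 10.8 and 563 TPM, or 287 ± 391 TPM (SD, n = 2). The SD exceeded the mean, so the mean describes neither library. After rescaling without mitochondrial genes and their copies the levels were 61.6 and 914 TPM, in the same order. Mrap ranked 3136 in replicate 1 and 160 in replicate 2.

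**Figure D1:**
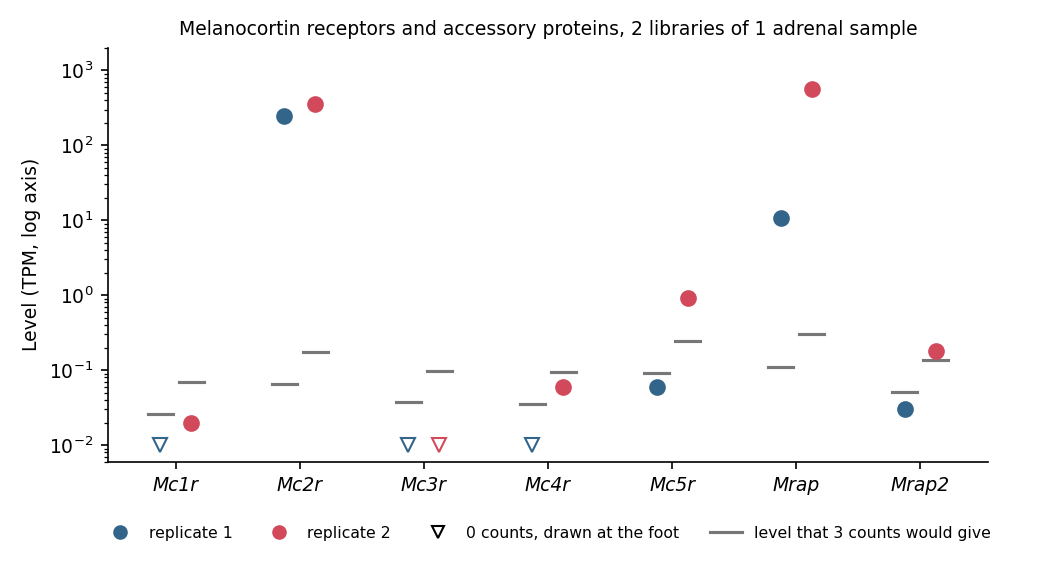
Level of each member in TPM (log axis) in replicate 1 and replicate 2, with grey bars at the level that 3 counts would give and open triangles for 0 counts. Mc2r lies at 245 and 351 TPM and Mrap at 10.8 and 563 TPM, while the other 5 members lie below 1 TPM.

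The other 4 receptors were at or near the limit of counting in both libraries. Mc5r (chromosome 18, 68337596 to 68342446) was the next receptor in order, with 2 counts in replicate 1 and 11 in replicate 2, or 0.06 and 0.91 TPM. Per length, Mc2r exceeded Mc5r 3968-fold in replicate 1 (95% exact interval 1098 to 32768) and 387-fold in replicate 2 (216 to 775). The deposited model of Mc5r has 1162 bases, against 3904 in the later GENCODE M21 annotation, where 2756 bases follow the coding sequence. Reads from sequence that only the longer model holds were outside the model counted.

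Mc4r, the hypothalamic receptor of energy balance, had 0 and 2 counts (0 and 0.06 TPM). Mc1r, the receptor of melanocytes, had 0 and 1 (0 and 0.02 TPM). Mc3r, the other central receptor, had 0 in both, which allows up to 0.0371 TPM in replicate 1 and 0.0988 TPM in replicate 2 (the level of 3 counts). Levels that low cannot be ordered among Mc1r, Mc3r and Mc4r. In replicate 1 Mc2r was at least 9368-fold higher than Mc1r, at least 6979-fold higher than Mc4r and at least 6612-fold higher than Mc3r per length, each against 3 counts. In replicate 2 it was at least 3551-fold higher than Mc3r, and the ratio was 5622 to Mc4r (95% exact interval 1556 to 46435) and 15098 to Mc1r (2709 to 596431), which rest on 2 counts and 1 count.

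As a share of all receptor counts, Mc2r took 99.982% in replicate 1 (95% exact interval 99.935 to 99.998, 11196 counts) and 99.767% in replicate 2 (99.61 to 99.873, 6021 counts). All receptors other than Mc2r together had 2 counts in replicate 1 and 14 in replicate 2, 11 of them from Mc5r. Intervals and limits cover counting error only.

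Mrap2 (chromosome 9, 87144306 to 87184045) had 2 and 4 counts, or 0.03 and 0.18 TPM. Mrap exceeded it per length 312-fold in replicate 1 (95% exact interval 85.5 to 2586) and 3060-fold in replicate 2 (1194 to 11235). The deposited tables give all Mrap2 counts to 1 of its 3 annotated transcripts in each library. The posterior shares in the same tables were 36.1, 30.8 and 33.2% for the same transcripts in replicate 1 and 37.1, 30.9 and 32.0% in replicate 2. So 2 and 4 counts did not separate the transcripts, and no isoform of Mrap2 can be named.

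The members' surroundings were read for counts that could cross between genes. No member had a near-identical copy (at least 95% identity over at least 50% of a transcript) elsewhere. The longest match between receptors joined Mc3r and Mc4r, at 68.4% identity over 827 bases. Mc2r and Mc5r are neighbours on chromosome 18, 64461 bases apart and on opposite strands, and differed in level as above. On the other side of Mc5r, Rnmt stood at 6.20 and 21.8 TPM at a distance of 12744 bases. Mc1r lies between Tcf25, 3272 bases away (5.08 and 106 TPM), and Tubb3, 680 bases away (0.09 and 2.20 TPM). It also overlaps Gm20388, annotated on the same strand with 164 and 1079 counts, and overlaps Gm38092 on the other strand, with 0 counts in both. The strand setting of the counting is not given in the sources used here. Urb1, 1742 bases beyond Mrap, stood at 0.92 and 3.79 TPM, far below Mrap in replicate 2. Cep162, the nearest protein-coding neighbour of Mrap2 at 5532 bases, stood at 2.01 and 2.50 TPM.

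The libraries were then compared gene by gene with an exact binomial test on counts scaled by TMM, a scaling that assumes most genes do not differ. The test compares 2 libraries and not conditions, and a gene was called at a Benjamini-Hochberg adjusted p under 0.05 with at least 2-fold difference. Of the 7 members, 2 had the summed count of 20 needed for the test and both were called, in opposite directions. Mc2r was lower in replicate 2, at 0.397 times replicate 1 (95% exact interval 0.385 to 0.410; log2 ratio -1.33), among 27.8% of tested genes called lower. Mrap was 14.2-fold higher (95% exact interval of the scaled ratio 12.7 to 16.1; log2 ratio 3.83), among 36.4% called higher. Both adjusted p-values were below the smallest number the software holds, in a test that allows for counting error only. A call in either direction was common over all genes.

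Other library scalings kept the direction of both genes but not every call. Under total-count scaling 7769 genes were called higher (54.1%) and 567 lower (3.95%), and the median log2 ratio over all genes went from 0.10 to 1.24. There Mc2r had a log2 ratio of -0.20, and -0.77 with totals that left out mitochondrial genes. Neither value reached 2-fold, so the call of Mc2r ended, while Mrap stayed called at 4.97 and 4.39. Mc5r and Mrap2 were too low for this test. Their scaled ratios were 4.07 (95% exact interval 0.889 to 37.8) and 1.48 (0.212 to 16.4), and both intervals span 1.

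The GC content of the 2 genes moved with this difference. The transcripts of Mc2r had 42.6% GC and those of Mrap 55.2%. The ratio of each lay within the quartiles of genes in its GC range given above. After a smooth trend of the ratio with GC content was removed, the log2 ratio of Mc2r turned from -1.33 to 0.29 and was not called, and that of Mrap went from 3.83 to 1.48, or 2.80-fold, and stayed called (exact binomial test, adjusted p = 8.17e-89), where 14.8% of genes were called higher and 10.3% lower. Whether GC content or another property of the transcripts set the difference was not tested.

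**Figure D2:**
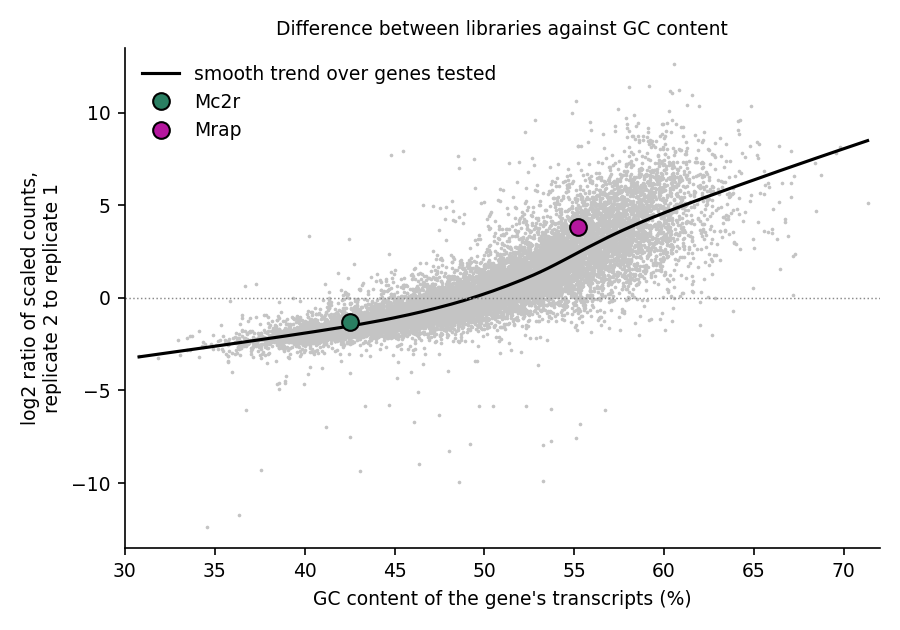
Log2 ratio of scaled counts in replicate 2 to replicate 1 against the GC content of each gene's transcripts in percent, with 1 grey point per tested gene and the smooth trend as a line. Mc2r (42.6% GC, log2 ratio -1.33) and Mrap (55.2% GC, log2 ratio 3.83) lie on opposite arms of the trend, and Mrap lies above the line.

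The ratio of the accessory protein to its receptor therefore had no single value in this sample. By TPM, Mrap was at 0.0439 of the Mc2r level in the first library and at 1.61 of it in the second. Mc2r led in one and Mrap in the other. The log2 ratio was -4.51 and 0.68, a difference of 5.19 that fell to 1.22 (2.33-fold) with the GC trend removed. Posterior mean TPM gave 0.0447 and 1.61.

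Most Mrap counts belonged to the transcript that encodes the full protein, in both libraries. Mrap-201 took 279.33 of 292 expected counts in replicate 1, or 95.7% (95% exact interval 92.5 to 97.6), and 5333.31 of 5628 in replicate 2, or 94.8% (94.1 to 95.3). The intervals overlap. By TPM within the gene its share was 96.05% and 93.55%. The coding transcript thus led to a like degree in both libraries, although the gene itself stood at 10.8 and 563 TPM.

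The transcripts with an early stop codon took the remainder, apart from Mrap-203. Those annotated for nonsense-mediated decay together had 12.67 counts in replicate 1, or 4.34% (95% exact interval 2.39 to 7.49), and 281.33 in replicate 2 (interval of the share 4.44 to 5.59%). Mrap-202 had 12.67 expected counts in replicate 1 and 177.51 in replicate 2, shares of 4.34% and 3.15%. Mrap-204 had 0 of 292 in replicate 1, which allows up to 1.03% by the limit of 3 counts (95% exact upper bound 1.26%), and 103.82 in replicate 2, a share of 1.84% (95% exact interval 1.51 to 2.23). Mrap-203, a transcript annotated without a coding sequence, had 0 and 13.35, a share of 0.237% in replicate 2. These counts are estimates that divide reads shared between transcripts, and the binomial intervals and limits leave out the error of that division. In replicate 1 the deposited interval was 0.0729 to 1.34 TPM for Mrap-202 and reached 0.188 TPM for Mrap-204. The posterior mean of the whole gene there was 10.65 TPM. The difference in Mrap-204 was not tested. The 4 transcripts had similar GC content, from 54.8 to 56.0%.

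**Figure D3:**
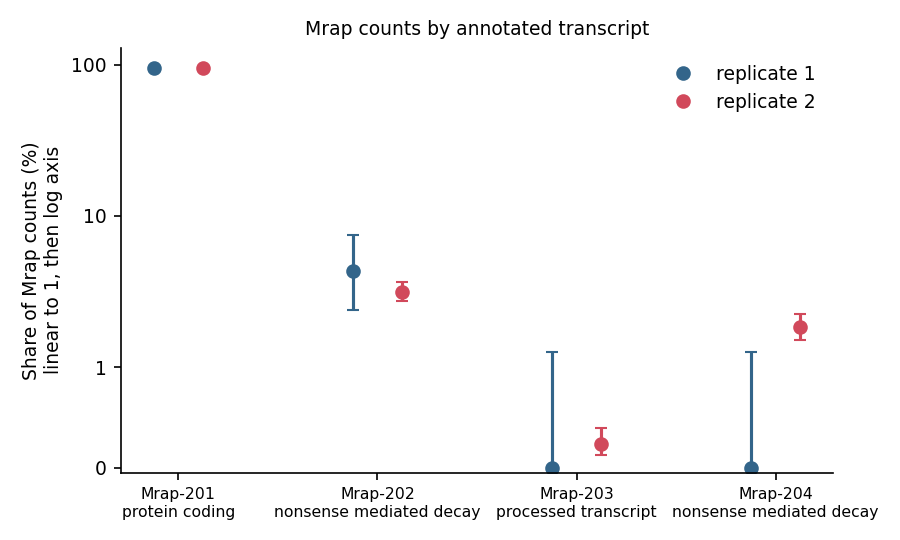
Share of Mrap expected counts given to each of its 4 annotated transcripts in percent (axis linear to 1, then log), with 95% exact binomial intervals, in replicate 1 and replicate 2. Mrap-201 holds 95.7% and 94.8%, and Mrap-204 is at 0 in replicate 1 and at 1.84% in replicate 2.

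Mc2r had a single transcript in the deposited tables, so no isoform of the receptor could be told apart. RefSeq on GRCm38.p6 lists 4 transcripts of this gene. The deposited model has 1562 bases and the M21 model 1631.

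The genes most like the 2 abundant members were named by distance in log2(TPM + 1) over the 2 libraries, among protein-coding genes. For Mc2r these were Timp3 (253 and 350 TPM), Usmg5 (253 and 346 TPM) and Elovl5 (253 and 356 TPM). For Mrap they were Cox8a (11.0 and 537 TPM), Rpl13 (10.6 and 601 TPM) and Pcolce (11.0 and 607 TPM). The first 3 had 44.2 to 47.3% GC and the last 3 had 54.7 to 58.5%. With 2 libraries this likeness rests on 2 values a gene. Choosing genes by level also largely fixed their ratio between the libraries, which followed GC content over all genes. Their GC values are thus not independent of the choice.

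Genes of the ligands, antagonists and the processing of peptide hormones were read as a list of 11. Pomc, the precursor of corticotropin and the melanocortins, had 0 counts in replicate 1 and 4 in replicate 2 (0.39 TPM). The agouti gene, an antagonist of MC1R, had 0 in both. These 2 genes are named for their role, after their values were seen. Agrp, an antagonist of MC3R and MC4R, had 0 and 24 counts (4.08 TPM), and was called higher in replicate 2 (exact binomial test, adjusted p = 4.65e-06), a call that ended with the GC trend removed. Cpe, the carboxypeptidase that trims peptide hormones, stood at 256 and 546 TPM, Pam, which amidates them, at 95.2 and 190 TPM, and the convertase gene Pcsk1 at 13.8 and 27.3 TPM. None of these 3 was called, though Pcsk1 was called higher with the GC trend removed (log2 ratio from -0.85 to 1.06). Sdc3, a syndecan, stood at 8.58 and 279 TPM and was called higher, and turned to lower with the GC trend removed (log2 ratio from 3.16 to -1.06). Pcsk2, the other convertase of the list, named after its values were seen, stood at 0.37 and 2.47 TPM. Of the 11 genes 9 were tested, of which 3 were called higher and none lower, where 36.4% and 27.8% of all genes were. Their median log2 ratio was -0.33 against 0.10 over all genes. With the GC trend removed 2 were called higher and 1 lower, where 14.8% and 10.3% of all genes were. None of the 3 earlier calls held.

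Signal transduction downstream of the receptor was measured as a list of 21 genes of the cyclic AMP cascade, of which 13 reached 1 TPM in both libraries. Gnas, which encodes the stimulatory G protein subunit that couples the receptor to adenylyl cyclase, stood at 295 and 1428 TPM. It was not called as scaled (log2 ratio 0.49) and was called lower with the GC trend removed (-3.14). Prkar1a and Prkar2b, regulatory subunits of protein kinase A, stood at 122 and 246 TPM and at 133 and 151 TPM. Prkaca, a catalytic subunit, stood at 9.73 and 131 TPM and Adcy4, an adenylyl cyclase, at 0.05 and 3.39 TPM. Of 19 genes tested 7 were called higher, among them Prkaca and Adcy4, and 4 lower, among them Prkar2b, shares near the 36.4% and 27.8% over all genes. With the GC trend removed 1 of the 7 higher calls and none of the 4 lower ones held, and the median went from 0.37 to -0.26. Of the 19, 1 was then called higher and 2 lower, where 14.8% and 10.3% of all genes were. The adenylyl cyclase gene Adcy5, named after its values were seen, turned from called higher (log2 ratio 2.96) to called lower (-1.31).

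Of 7 genes that switch receptors off, 6 reached 1 TPM in both libraries. Arrb1, a beta-arrestin, stood at 2.56 and 38.3 TPM, and the receptor kinases Grk6 at 1.08 and 28.2 TPM, Grk2 at 1.99 and 24.95 TPM, Grk5 at 3.62 and 16.1 TPM and Grk4 at 1.44 and 1.57 TPM. Of the 7 genes 4 were called higher and 1, Grk4, lower, where 36.4% and 27.8% of all genes were. Their median log2 ratio was 1.5 against 0.10 over all genes. With the GC trend removed none was called, where 14.8% and 10.3% of all genes were called higher and lower. The median was then 0.01 against 0.075 over all genes.

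Among 10 genes listed for steroid production and the response to corticotropin, 6 were called higher in replicate 2 and none lower, where 36.4% and 27.8% of all genes were, with a median log2 ratio of 2.15. With the GC trend removed 4 were called higher and none lower, at a median of 0.59, where 14.8% and 10.3% of all genes were called. The call of Cyp21a1, the 21-hydroxylase, held with the GC trend removed (log2 ratio from 4.73 to 1.54), as did 2 others of the 6. Star, which brings cholesterol into mitochondria, stood at 1953 and 5390 TPM, and the steroid enzyme genes Hsd3b1 and Cyp11b1 at 2871 and 11133 TPM and at 1870 and 5203 TPM. These 3 were not called, at log2 ratios of -0.38, 0.11 and -0.37. Total-count scaling raises the ratio of every gene alike. Under it the lower calls of Prkar2b and Grk4 ended, and the 4 lists held no lower call, where only 3.95% of all genes were called lower.

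**Figure D4:**
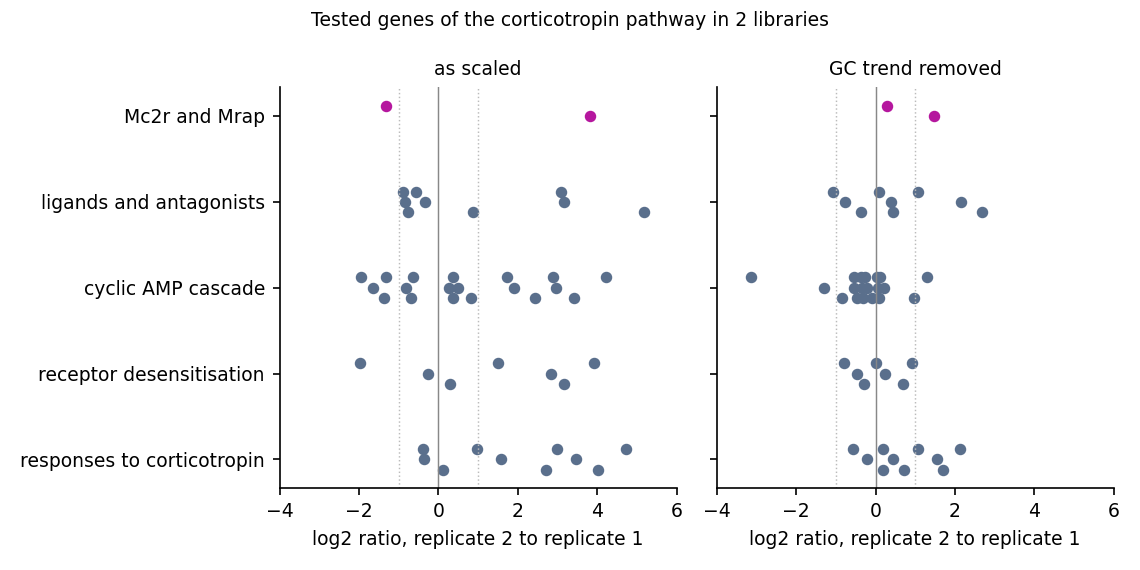
Log2 ratio of replicate 2 to replicate 1 for Mc2r and Mrap and for the tested genes of 4 lists, with 1 point per gene, as scaled and with the GC trend removed; dotted lines mark 2-fold. Mc2r and Mrap lie at -1.33 and 3.83 as scaled, and at 0.29 and 1.48 after the trend was removed.

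Markers of cell types that carry members of the family elsewhere were counted beside them. The 8 melanocyte markers had sums of 3.77 and 8.90 TPM, 1 of them at 1 TPM or more in both libraries. Tyr, Tyrp1, Mlana and Slc45a2 had 0 counts in both libraries, Dct had 2 and 3, and Pmel had 0 and 9. Mitf (2.75 and 3.62 TPM) and Oca2 (0.99 and 4.79 TPM) made up most of each sum. Adipocyte markers, of a cell type in which mouse Mrap is also known to be expressed, summed to 475 and 3425 TPM over 10 genes, 8 of them at 1 TPM or more in both libraries. Their most abundant genes in mean TPM were Fabp4 (335 and 1443 TPM), Cfd (2.58 and 860 TPM) and Ucp1 (69.1 and 420 TPM). Of the 10, 5 were called higher and none lower, where 36.4% and 27.8% of all genes were. With the GC trend removed 6 were called higher and 1, Adrb3, lower, where 14.8% and 10.3% of all genes were. The adipocyte sum and the Mrap level were both larger in replicate 2, as was the sum of every other marker list given here. The part of fat RNA in the Mrap level was not tested. The macrophage list of 8 genes had a total of 12.9 TPM in replicate 1 and 193 TPM in replicate 2, and each gene had counts in both libraries. C1qa, C1qb and C1qc led it in mean TPM. Within replicate 1 they stood at 0.99, 0.57 and 0.53 TPM, and Mrc1 led at 7.51 TPM. Mrc1 stood at 7.19 TPM in replicate 2 and was called lower (log2 ratio -1.55), while 5 of the 8 were called higher. Over all genes 27.8% were called lower and 36.4% higher. With the GC trend removed the call of Mrc1 ended (log2 ratio 0.27). Then 3 of the 8 were called higher and none lower, against 14.8% and 10.3% of all genes. Only 2 of the 8 reached 1 TPM in both libraries. Among hypothalamic neuron markers Sim1 had 3 and 0 counts, and the list's sum of 162 and 847 TPM came mostly from Npy, which chromaffin cells also express, with Snap25 and Cartpt behind it. The labelled tissue carried its own markers. The 7 cortex genes, led in mean TPM by Hsd3b1, Cyp21a1 and Star, summed to 7520 and 40260 TPM. The 7 chromaffin genes, led in mean TPM by Chgb, Chga and Th, summed to 356 and 4532 TPM. In replicate 1 alone Cyp21a1 (97.0 TPM) lay below Cyp11b1 (1870 TPM), and Th (6.89 TPM) below Slc18a1 (12.1 TPM). Of the chromaffin genes Pnmt, which makes adrenaline, had 0 counts in replicate 1 and 4291 in replicate 2 (357 TPM), and the other 6 reached 1 TPM in both.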

How the data were processed

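The files use mm10 and GENCODE annotation M4, per the notes deposited with them. Which aligner and which counting program were run is not given in the sources used here. The authors deposited expected counts (estimated fragments, not always whole), TPM and FPKM per gene and, per transcript, its share of the gene in percent. Posterior mean TPM and its interval bounds, a score in the deposited tables whose level is not stated, were used as alternatives.

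Gene rows that are not Ensembl genes (26345, all at 0 counts) were left out. Symbols came from the reference name table (3 older list symbols were matched by hand), and coordinates, GC content and sequences from GENCODE M21 on GRCm38 (the same assembly as mm10). Gene GC content is the length-weighted value over the deposited transcripts found in M21. Expected counts were rounded; the 14358 genes that reached 20 counts over both libraries were scaled by TMM (edgeR 4.0.16, R 4.3.3). An exact binomial test, two-sided, compared the libraries (scipy 1.17.1), with Benjamini-Hochberg adjustment over all of these genes. Log2 ratios used a prior count of 0.5. The GC trend was a lowess fit with a fraction of 0.3 (statsmodels 0.14.6), available for 14317 genes. Nuclear copies of mitochondrial genes, 15 in all, had 90% identity or more over at least 50% of their length (BLAST 2.17.0). The test was checked on simulated counts with 200 changed genes and no spread beyond counting error. Far more genes were called between the real libraries, so that check does not cover the calls made here.

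The members and lists were chosen with earlier results of these data known. Named were all members, the 4 list genes of highest mean TPM and the lowest called gene of each pathway list (1 gene that this rule names is not reported here), 3 genes per marker list, 3 like genes per abundant member and the neighbours. The GC ranges of 42 to 46% and 54 to 58% and the scaling without nuclear copies were chosen after seeing the data.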

Additional observations from a re-analysis of the deposited data

How the results depend on the processing

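The number of genes called higher in replicate 2 went from 5232 to 2112 with the GC trend removed, and stayed within 1.5 times under the other alternatives. The number called lower went from 3987 to 1481 with the GC trend removed, 567 under total-count scaling, 2017 with totals that left out mitochondrial-genome genes and 6002 without the fold minimum. The sign of the Mc2r ratio reversed (-1.33 to 0.29) with the GC trend removed. Mrap stayed called as higher under all 9 alternatives, at log2 ratios from 1.48 to 4.97. The library difference in the log2 ratio of Mrap to Mc2r, 5.19, went to 1.22 with the GC trend removed. The mean of that ratio, -1.91, was 0.68 without replicate 1 and -4.51 without replicate 2. The count of 2 members detected was the same under all alternatives tried (FPKM, posterior mean TPM, both rescalings, minimums of 0.1 and 10, and either library alone). The mean level of Mc2r moved from 298 to 494 TPM without mitochondrial-genome genes and to 986 TPM without their copies as well, which also took Mrap from 287 to 488, Mc5r from 0.485 to 0.910, Mc4r from 0.030 to 0.049, Mrap2 from 0.105 to 0.232 and Mc1r from 0.010 to 0.016 TPM. Posterior means gave 0.025 TPM for Mc1r, 0.020 for Mc3r (0 as deposited), 0.050 for Mc4r and 0.18 for Mrap2. Without a minimum summed count 4 further members could be tested and none was called. Causes were not tested. No paired analysis was possible because both libraries belong to 1 group, and no library comparison is left when 1 of the 2 is dropped. With 2 technical libraries of 1 biological sample, no value here estimates a spread between animals.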
